A study of Mus musculus with 2 samples.

Results

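The 6 genes described here encode transcription factors known for the control of cilium genes or belonging to the same family: Rfx1, Rfx2, Rfx3, Rfx5, Rfx7 and Foxj1. They were taken by their symbols from the 32285 genes of the count tables, and each symbol matched 1 row. Their counts were summed over 19294 cells, the barcodes with at least 2500 UMIs, at least 1000 genes and at most 10% mitochondrial UMIs. UMIs are random tags added before amplification, so that amplified copies of an RNA molecule count as 1.

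The study made single-cell RNA libraries from mouse gastruloids, aggregates of embryonic stem cells that begin to form a body axis in culture. Each aggregate was started from about 300 cells in serum-free N2B27 medium and given 3 µM CHIR, an inhibitor of GSK3 that activates Wnt signalling, for the 12 hours before collection at day 2.5. One library came from wild-type R1 embryonic stem cells and the other from Sp5/8 double knockout cells, which lack Sp5 and Sp8 per the labels; both had the same medium and CHIR, aggregates were pooled, and neither label says whether the mutant line is 1 clone. The series title names the formation of primary cilia as its subject.

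RFX proteins share a winged-helix DNA-binding domain that recognises the X-box, a site made of a pair of inverted arms. RFX2 and RFX3 are known as activators of genes for building cilia, and RFX1 binds many of the same sites. RFX5 works with RFXANK and RFXAP at the promoters of MHC class II genes, and RFX7 is known as a regulator of growth-restraining genes, several of them also reached through p53. FOXJ1 is a forkhead factor that drives the motile cilium programme, which in the early mouse embryo belongs to the node rather than to the epiblast. Epiblast cells carry a single non-motile primary cilium, and RFX factors serve both kinds of cilium.

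A single X-box arm was searched in RefSeq promoter sequences of build GRCm38.p6, reaching from 250 bases before to 50 bases after each gene's start. Of the 6 genes, 5 had such a sequence, and none was used for Foxj1. The letters GTTGCC, searched on both strands, were present in the promoters of Rfx1, Rfx2 and Rfx3 and not in those of Rfx5 and Rfx7. In 14.1% of 27025 genes they were present. The stretches below show these 3 arms in capitals, 5′ to 3′ on the strand of the gene, because in each a further, inverted arm-like stretch (gcaac or gtaac) lies just before the capitals.
Rfx1: tgggtagcaacaGTTGCCccggtgagggaa
Rfx2: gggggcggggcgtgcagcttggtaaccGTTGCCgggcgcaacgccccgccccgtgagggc
Rfx3: gttatagcaaccGTTGCCttgtgaatcaag
The Rfx1 stretch is chr8:84066825-84066854 on the plus strand, with the arm at bases 1 to 6 counted from the start site as 0. The Rfx2 stretch is chr17:56831092-56831151 on the minus strand, with the arm from -116 to -111. The Rfx3 stretch is chr19:28011118-28011147 on the minus strand, with the arm from 31 to 36. Written as GNAACNGTTGCC, a pattern chosen after these sequences were seen, the back-to-back arrangement occurred in 25 of 27025 genes, or 0.0925%, and 3 of the 25 were Rfx1, Rfx2 and Rfx3. A match is a description of the letters and not a binding site.

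The paired X-box, written as GTTNCCNNGGNAAC, has its arms facing the other way round. It was not found in the promoters of the 5 Rfx genes, and 0.529% of all genes had it. Among the genes of the cilium lists described later, Mks1, Tctn1 and Pifo had it, and their matches are printed in capitals for comparison with the Rfx promoters.
Mks1: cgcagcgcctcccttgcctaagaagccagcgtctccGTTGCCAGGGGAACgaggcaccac
Tctn1: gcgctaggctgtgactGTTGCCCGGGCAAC
Pifo: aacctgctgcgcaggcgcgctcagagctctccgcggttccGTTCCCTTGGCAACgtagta
These lie at chr11:87853155-87853214 on the plus strand, chr5:122264411-122264440 on the minus strand and chr3:106001498-106001557 on the minus strand. The FOXJ1 site GTAAACA was in 0 of the 5 Rfx promoters and in 4.05% of all genes.

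The WT-labelled library gave 8707 cells with 97157331 UMIs (median 10571 per cell), and the mutant-labelled library gave 10587 cells with 97644169 UMIs (median 8637). The 2 libraries shared 27 cell barcodes. With 1 library per genotype no difference could be tested, and every interval below is a 95% interval for counting error only. The targeted genes went against the labels: Sp5 was at 109.1 CPM (UMIs per 1000000 UMIs of the library) in the WT-labelled library, against 478.7 CPM in the mutant-labelled library, and Sp8 was at 20.8 and 40.1 CPM. A 3′ tag cannot show whether a transcript still encodes the protein if the deletion lies elsewhere, and the position of the deletion is not given in the sources used here. Whether the labels of the libraries were exchanged was not tested; if they were, every ratio below would change sign, that of Rfx3 included. Libraries are therefore named by their labels throughout, and directions refer to the labels only. The epiblast markers Pou5f1 (656 and 679 CPM) and Dnmt3b (724 and 770 CPM) were abundant in both, while the fibroblast gene Col1a1 stood at 0.998 and 1.17 CPM.

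The levels of the 6 genes spanned more than an order of magnitude in both libraries. One UMI stands for 1 captured 3′ end whatever the length of the transcript, so CPM values were set side by side between genes without length scaling, although 3′ ends differ in how well they are captured. Rfx7 had the highest level, at 55.6 CPM (54.1 to 57.1, 5401 UMIs) in the WT-labelled library and 48.8 CPM (47.4 to 50.2, 4761 UMIs) in the mutant-labelled library. Its mean level was above that of 87.2% of the 22549 genes with any UMI in these cells.

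Rfx1, the broadly expressed founding member of the family, came next with 12.4 CPM (11.7 to 13.1, 1203 UMIs) and 12.8 CPM (12.1 to 13.5, 1248 UMIs). Rfx3, a driver of cilium assembly genes, stood at 9.90 CPM (9.29 to 10.5, 962 UMIs) and 7.93 CPM (7.38 to 8.51, 774 UMIs). Rfx5, the DNA-binding subunit of the MHC class II complex, stood at 7.17 CPM (6.65 to 7.73, 697 UMIs) and 6.11 CPM (5.63 to 6.62, 597 UMIs). The intervals of these 3 neighbours in the order did not overlap within either library.

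Rfx2 and Foxj1 were the least abundant of the 6 genes. Rfx2, the closest relative of Rfx3 in its known ciliary role, had 1.42 CPM (1.19 to 1.68, 138 UMIs) and 1.23 CPM (1.02 to 1.47, 120 UMIs). Foxj1 had 1.02 CPM (0.828 to 1.24, 99 UMIs) and 0.830 CPM (0.659 to 1.03, 81 UMIs). Their intervals overlapped in both libraries, so the order of these 2 genes was not resolved. The remaining family members were as low or lower: Rfx4, known from the neural tube, had 130 and 81 UMIs, Rfx6, known from the pancreas, 18 and 15, and Rfx8 had 12 and 10.

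**Figure D1:**
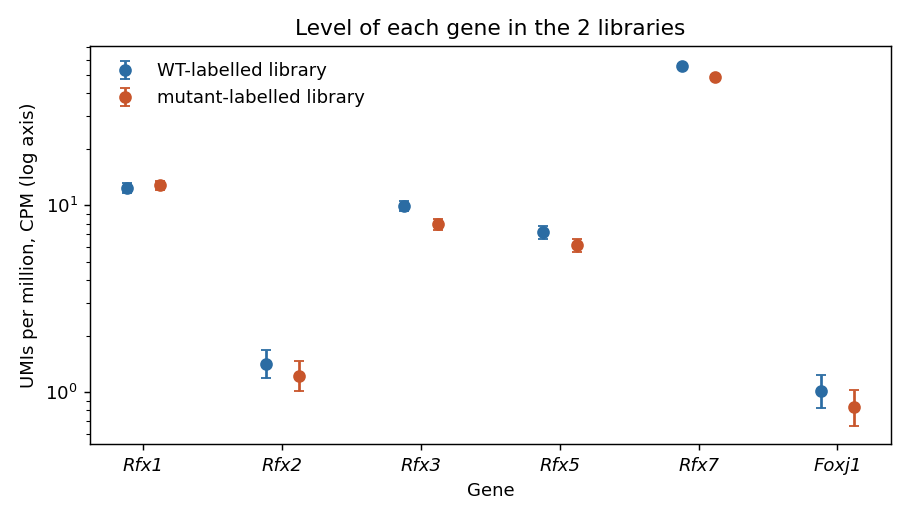
Level of each gene (CPM, log axis) in the WT-labelled library (blue) and the mutant-labelled library (orange); points are library sums over cells and bars are exact Poisson 95% intervals. The order Rfx7, Rfx1, Rfx3, Rfx5 holds in both libraries, and Rfx2 and Foxj1 lie near 1 CPM with overlapping intervals.

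Most cells gave no UMI of most of these genes. After each cell was thinned to 4000 UMIs, which left out 258 and 358 shallower cells, Rfx7 was seen in 18.9% of cells (18.1 to 19.8) in the WT-labelled library and in 17.0% (16.3 to 17.8) in the mutant-labelled library. Rfx1 was seen in 5.03% and 5.05%, Rfx3 in 3.65% and 3.09%, and Rfx5 in 2.69% and 2.40% of thinned cells. Rfx2 was seen in 0.615% and 0.499% and Foxj1 in 0.497% and 0.352%. None of the 6 genes had a UMI in 71.5% and 74.2% of thinned cells, and 3 or more of them were seen together in 0.142% and 0.156%. Without thinning, the shares with Rfx7 were 43.8% and 33.9%, a wider gap between libraries of unequal depth per cell.

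Droplets with 1 to 100 UMIs, which hold free RNA, gave the make-up of that RNA, since no cell type known to lack the genes was available. The 885099 and 892271 such droplets held 5269228 and 3709403 UMIs in all, against medians of 10571 and 8637 UMIs in 1 cell. Rfx7 in such droplets was at 72.4% (62.8 to 83.0) and 81.8% (69.0 to 96.4) of its level in cells, while the median gene was at 92.0% and 92.9%. Rfx1, Rfx3 and Rfx5 lay between 84.4% and 122% of their level in cells. Rfx2 had 4 and 2 UMIs in these droplets and Foxj1 2 and 2, so no level was resolved. These levels describe the make-up of free RNA and not how much of it a cell holds, which was not measured. Single UMIs of Rfx2 and Foxj1 in a cell were therefore assigned neither to free RNA nor to expression by that cell.

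All 6 genes except Rfx1 had a lower level in the mutant-labelled library. The differences were small, and the intervals of 3 genes lay wholly below 0. A gene was called different at an absolute log2 ratio (mutant-labelled over WT-labelled library, 0.5 UMI added to each sum) of at least 0.25 with a mean CPM of at least 1. By this rule 1 of the 5 genes above the minimum was called lower and 0 higher, against 8.89% lower and 5.70% higher among 12406 genes. The called gene was Rfx3, with a log2 ratio of -0.32 (-0.46 to -0.18), and its intervals in the 2 libraries did not overlap.

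Rfx7 had a log2 ratio of -0.19 (-0.25 to -0.13) and Rfx5 of -0.23 (-0.39 to -0.07), both under the size for a call. Intervals wholly below 0, as these 3 genes had, were found for 30.4% of the 12406 genes, whose median was -0.03. Rfx2 had -0.21 (-0.57 to 0.15), and Foxj1, whose mean of 0.924 CPM is under the minimum, had -0.30 (-0.74 to 0.14). The intervals for Rfx2 and Foxj1 include both no difference and a difference as large as that of Rfx3. Rfx1 had 0.05 (-0.07 to 0.16), an interval that lies within the size for a call on both sides.

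Cells were clustered with these genes, Sp5, Sp8, the cilium and RFX lists and cell cycle genes left out, so that the levels by cluster do not come from the clustering itself. Cluster 1, primitive-streak-like, was led by Gsc, Mixl1, Fgf8, Eomes and Adamts9 and held 2760 and 6105 cells. Cluster 2, led by Irx3, Fgfr2, Gbx2, Irx5 and Meis2, held 3568 and 2861. Cluster 3, naive-pluripotent-like, was led by Rhox9, Dppa3, Rhox6, Triml2 and Nr5a2 and held 380 and 428. Among marker lists, 6 of 8 naive pluripotent genes were at least 1.5-fold higher in cluster 3. So were 3 of 6 epiblast, 2 of 6 fibroblast and 1 of 5 stress genes.

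Clusters 4, 5 and 6 were set apart by chromosome-wide expression, by mixed markers or by depth. Cluster 4, led by Nfib, Cdx2, Pkdcc, Gm16233 and Itgb5, held 1408 and 525 cells. Of these, 92.1% had low expression along chromosome 11 and 69.4% along chromosome 6. Among marker lists, 3 of 6 caudal, 3 of 9 primitive streak and 2 of 7 neural genes were at least 1.5-fold higher in it. Cluster 5, led by Ttr, Spink1, Srgn, Glipr1 and Pga5, mixed cells with neural and with extraembryonic endoderm markers and held 226 and 238 cells. Cluster 6, led by Rps26, Oip5, Tbc1d7, Rpf2 and Gstm1, held 327 and 356 shallow cells with median UMI totals of 3676 and 3226. A stress-led cluster with Ddit3 and Pmaip1 had under 100 cells per library (38 and 74) and was not compared.

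Rfx3 was highest in cluster 5 in both libraries. Its level there was 20.5 CPM (14.9 to 27.6, 44 UMIs) in the WT-labelled library and 17.8 CPM (12.3 to 24.9, 34 UMIs) in the mutant-labelled library. These were 2.15-fold (1.53 to 2.88) and 2.34-fold (1.58 to 3.25) the level in the remaining cells of the same library. A difference of at least 1.5-fold in this direction was found for 19.2% and 17.6% of genes in this cluster, so Rfx3 was 1 of many. No other member reached 1.5-fold there in either library.

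With finer clustering, neural-like and endoderm cells fell into separate clusters. The neural-like one, whose leading genes included Nhlh1, Ebf3 and Atoh1, held 260 and 288 cells, more than cluster 5, so it also took in cells from outside it. Rfx3 there was at 20.2 CPM (15.0 to 26.6) and 17.6 CPM (12.7 to 23.9). The fold over the rest was 2.11 and 2.32. Foxj1 had 0 and 1 UMIs in these cells. Rfx4 was also highest in cluster 5, at 6.53 CPM (3.57 to 10.96, 14 UMIs) and 4.19 CPM (1.81 to 8.26, 8 UMIs), and lowest among the larger clusters in the primitive-streak-like cells, at 0.526 and 0.383 CPM.

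Rfx2 was highest in the naive-pluripotent-like cells of cluster 3. There it stood at 5.47 CPM (3.51 to 8.14, 24 UMIs) in the WT-labelled library and at 2.47 CPM (1.19 to 4.54, 10 UMIs) in the mutant-labelled library. The fold over the rest was 4.53 (2.74 to 6.96) and 2.20 (0.98 to 4.02), and the second interval includes no difference. In this cluster 7.98% and 8.05% of genes were higher by at least 1.5-fold. With finer clustering, in which the matched cluster had 689 and 796 cells, the fold was 3.18 and 1.51. The log2 ratio of Rfx2 between the libraries within cluster 3 was -1.11 (-2.38 to -0.03).

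Foxj1 also had its highest level in cluster 3, on fewer molecules. It stood at 2.74 CPM (1.41 to 4.78, 12 UMIs) and 1.73 CPM (0.695 to 3.56, 7 UMIs), which was 3.02-fold (1.45 to 5.36) and 2.33-fold (0.85 to 4.74) the rest. Rfx1 was 1.46-fold (1.13 to 1.82) and 1.45-fold (1.12 to 1.82) the rest in the same cluster, at 17.6 and 18.0 CPM. That fold was 1.10 in the WT-labelled library with finer clustering. Rfx3 was at 6.84 and 5.44 CPM there, both below its level in the rest of the cells, so the higher levels in cluster 3 were not shared by all members.

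Foxj1 lies on chromosome 11, and the cells with low expression along that chromosome had 8 of its UMIs in the WT-labelled library. Their level was 0.542 CPM against 1.10 CPM in the other cells, a fold of 0.52 (0.21 to 1.01), and in the mutant-labelled library they had 1 UMI. The part of this chromosome in the library ratio of Foxj1 was measured only by leaving out cells low on chromosome 6 or 11, which gave a log2 ratio of -0.35. None of the Rfx genes described here lies on chromosome 11, and Rfx7 was at 58.4 and 50.8 CPM in the same cells.

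Rfx7 in clusters 1 to 5 lay between 53.2 and 64.1 CPM in the WT-labelled library and between 47.7 and 56.1 CPM in the mutant-labelled library. In the shallow cells of cluster 6 it was at 19.3 CPM (12.5 to 28.5) and 8.76 CPM (4.37 to 15.7), which was 0.35-fold (0.22 to 0.51) and 0.19-fold (0.09 to 0.32) the rest. Of all genes, 49.8% and 50.0% were lower by at least 1.5-fold in cluster 6, so a low level there is not particular to Rfx7. Depth per cell moved with the Rfx7 level over all cells. Cells of 5000 to 10000 UMIs had 53.6 and 47.1 CPM, and cells of 20000 UMIs or more had 60.6 and 58.8 CPM.

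**Figure D2:**
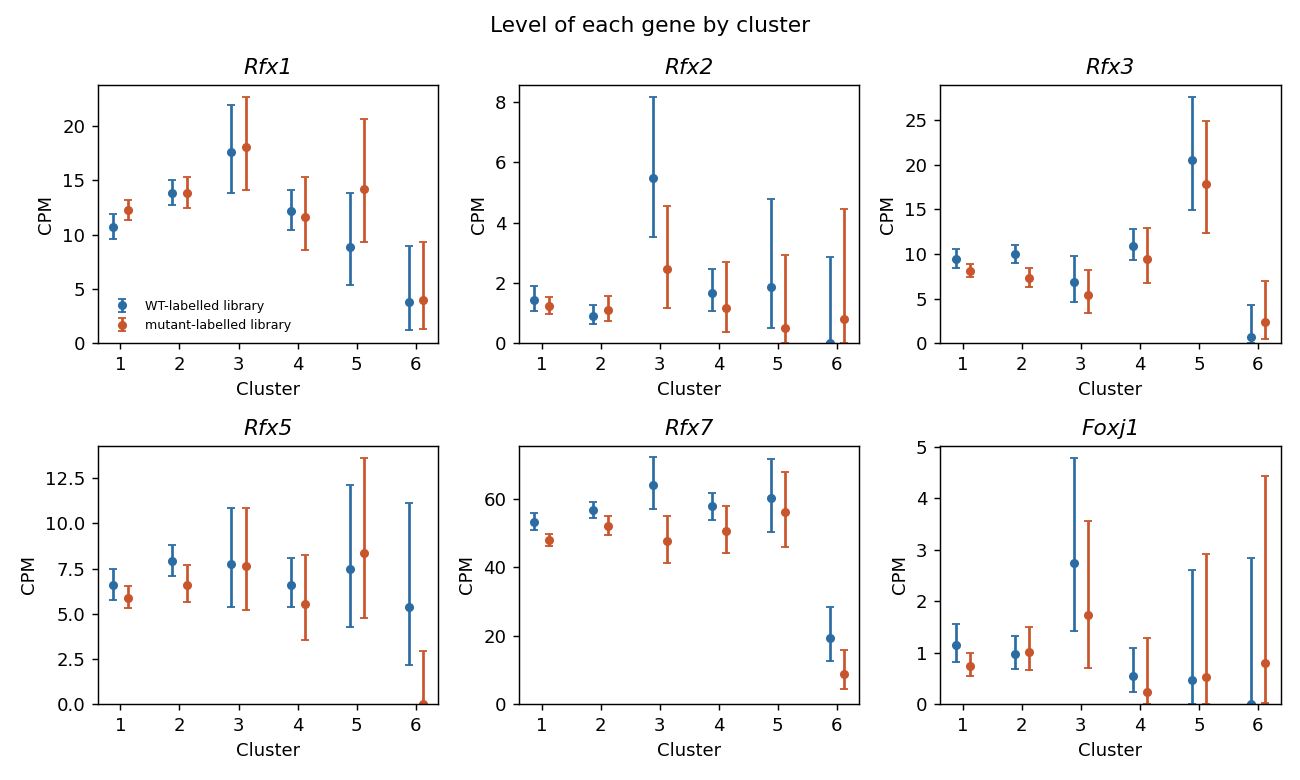
Level of each gene (CPM, linear axis from 0, 1 panel per gene) in clusters 1 to 6 of the WT-labelled library (blue) and the mutant-labelled library (orange), with exact Poisson 95% intervals as bars. Rfx3 stands out in cluster 5 (20.5 and 17.8 CPM), Rfx2 and Foxj1 are highest in cluster 3, and Rfx7 is low in the shallow cells of cluster 6 (19.3 and 8.76 CPM).

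Within clusters, the lower Rfx3 and Rfx7 levels of the mutant-labelled library were seen again where the counts were large. In cluster 2 Rfx3 was at 10.0 CPM against 7.28 CPM, a log2 ratio of -0.46 (-0.72 to -0.21). In cluster 1 Rfx3 was at 9.45 CPM against 8.09 CPM, a log2 ratio of -0.22 (-0.43 to -0.02), which is under the size for a call. In clusters 3, 4 and 5 its log2 ratios were -0.32, -0.19 and -0.20 with intervals that include 0. Cluster 6 had 1 and 3 UMIs of Rfx3.

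Rfx7 had log2 ratios of -0.15 (-0.24 to -0.07) in cluster 1, -0.12 (-0.22 to -0.03) in cluster 2 and -0.42 (-0.70 to -0.16) in cluster 3. In clusters 4 and 5 it had -0.19 and -0.10 with intervals that include 0, and in cluster 6 it had -1.10 (-2.31 to -0.06) on 25 and 11 UMIs. When 4 depth ranges were given equal weight in both libraries, the Rfx7 ratio over all cells was -0.16. Rfx5 had -0.16 (-0.40 to 0.09) in cluster 1 and -0.26 (-0.54 to 0.02) in cluster 2. In clusters 3, 4 and 5 it had -0.02, -0.23 and 0.17, also with intervals that include 0, and cluster 6 had 7 and 0 of its UMIs. Rfx1 had 0.19 (0.01 to 0.38) in cluster 1 and 0.00 (-0.20 to 0.20) in cluster 2. Whether these ratios differ between clusters was not tested.

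**Figure D3:**
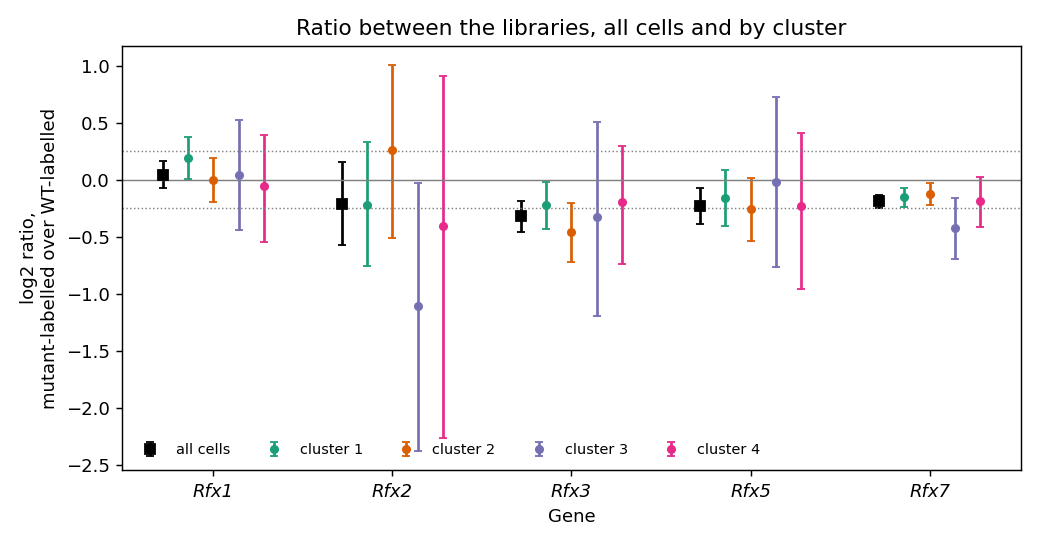
Log2 ratio of the mutant-labelled library over the WT-labelled library for the 5 Rfx genes, over all cells (black squares) and in clusters 1 to 4 (coloured points); bars are exact conditional 95% intervals for counting error, and dotted lines mark the size for a call of 0.25. Rfx3, Rfx5 and Rfx7 lie below 0 in every cluster drawn, the Rfx5 intervals in the clusters include 0, and the Rfx2 intervals are wide. Rfx1 lies near 0 except in cluster 1, where it is at 0.19 (0.01 to 0.38).

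Cells were also split by their cell cycle transcripts after thinning, with levels taken from all their UMIs. The cells richer in G2/M transcripts were also deeper. In the WT-labelled library 3565 of them held 44806770 UMIs, against 40401277 in 3805 cells richer in S-phase transcripts. The mutant-labelled library had 41741467 UMIs in 4039 cells and 37558435 in 4251. The part of depth was not tested. How many of all genes separate as much was not counted, so the separations below are not shown to be particular to these genes. Rfx1 was at 13.7 CPM (12.7 to 14.9) in cells richer in G2/M transcripts and 11.2 CPM (10.2 to 12.3) in cells richer in S-phase transcripts of the WT-labelled library. In the mutant-labelled library the values were 14.1 CPM (13.0 to 15.3) and 11.3 CPM (10.2 to 12.4), so neither pair of intervals overlapped. Rfx3 showed 10.5 against 9.38 CPM and 8.98 against 7.0 CPM, without overlap in the second library only. Rfx7 showed 59.9 against 50.9 CPM and 50.4 against 47.8 CPM, without overlap in the first only. Rfx5 showed 8.30 CPM (7.48 to 9.19) against 6.01 CPM (5.28 to 6.82) and 6.78 against 5.99 CPM, also without overlap in the first only. Rfx2 showed 1.29 against 1.44 CPM and 1.46 against 1.14 CPM, with overlap in both. Foxj1, a gene of cells that have left the cycle in ciliated epithelia, was at 1.62 CPM (0.959 to 2.56) and 1.28 CPM (0.801 to 1.94) in cells low in both kinds of transcript. These intervals overlap those of the S-phase cells. In cells richer in G2/M transcripts it was at 0.826 CPM (0.581 to 1.14, 37 UMIs) and 0.599 CPM (0.388 to 0.884, 25 UMIs), again with overlap. The fold of the cells low in both over the rest was 1.74 (0.96 to 2.86) and 1.77 (1.02 to 2.90).

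The pattern over clusters was compared between genes by the Pearson correlation of log2(CPM + 1) over 12 points, 6 clusters in each of 2 libraries, among 7606 genes with a mean of at least 10 CPM. The most similar genes to Rfx7 were Pogz, Fam126b and Cdc42bpb, each at 0.99, and those to Rfx1 were Prr12 (0.97), Nup188 (0.97) and Adat1 (0.96). A correlation of at least 0.8 was reached by 34.7% of genes with Rfx7 and 25.5% with Rfx1, and the points share libraries and include the shallow cluster 6. Without that cluster, over 10 points, the most similar genes were different ones: Hace1 (0.94), Wnk3 (0.92) and Taf2 (0.92) for Rfx7, and Pmm1 (0.93), Cstf1 (0.90) and Fzr1 (0.90) for Rfx1. Then 0.592% and 0.513% of genes reached 0.8.

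Foxj1 was seen in 99 and 80 cells. Noto, a node gene upstream of Foxj1, had 0 UMIs in both libraries, which allows up to 0.0309 and 0.0307 CPM at a limit of 3 UMIs. It does not stand for all node genes. Of the 6 genes of a node and notochord list, 2 reached a mean of 1 CPM. Those 2 were called higher in the mutant-labelled library, or 100% against 5.70% of all genes, with a median log2 ratio of 1.16. The list summed to 5.91 and 12.8 CPM, and 2 of its 6 genes had no UMI in either library. With finer clustering, Foxa2 of this list was among the leading genes of a cluster with Mesp1, Lhx1 and Mixl1. That cluster held 1.41% and 4.09% of cells, and 9 of 9 primitive streak genes were at least 1.5-fold higher in it. The list is therefore not specific to node cells here. Of the cells with Foxj1, 1 in all had more than 1 UMI. The motile cilium list described below summed to 26.4 CPM (18.2 to 37.1) in cells with Foxj1 and 31.7 CPM (30.6 to 32.9) in the others of the WT-labelled library. In the mutant-labelled library it was at 35.1 CPM (23.5 to 50.3) and 33.2 CPM (32.1 to 34.4). The node and notochord list was at 8.80 against 5.87 CPM and 9.67 against 12.8 CPM. The intervals overlapped in each comparison.

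The motile cilium list holds axonemal dynein, radial spoke and central apparatus genes known as FOXJ1 targets. Of its 28 genes, 26 symbols were found in the tables and 8 had a mean of at least 1 CPM. Among these, 4 were higher and 4 lower in the mutant-labelled library, with a median log2 ratio of 0.00. In all, 2 were called higher, or 25%, against 5.70% of all genes, and 0 lower. Rsph1, a radial spoke protein, had a log2 ratio of 0.30 (0.12 to 0.49), and Pifo, a ciliary protein with the X-box letters in its promoter, one of 0.27 (-0.09 to 0.64), an interval that includes 0. Spag16, of the central apparatus, had -0.22 (-0.63 to 0.18). The axonemal dynein genes Dnah5 and Dnah9 had 8 and 11 and 8 and 4 UMIs.

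The regulators above Foxj1 and beside the RFX factors in multiciliated cells ranged from undetected to abundant. Of 12 listed, 7 reached a mean of 1 CPM, with 2 higher, 5 lower and a median of -0.04. Gmnc, which starts multiciliated cell differentiation, had 102 and 100 UMIs, and Mcidas, which acts after it, had 19 and 14. In all, 1 was called higher and 1 lower, or 14.3% each, against 5.70% and 8.89% of all genes. Myb, also a general gene of cycling progenitors, was called higher at 0.70 (0.59 to 0.82). Ccno, of the centriole amplification programme, was called lower at -0.76 (-1.06 to -0.47). The cell cycle factors Tfdp1 and E2f4 had -0.22 (-0.25 to -0.18) and 0.12 (0.09 to 0.15).

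Genes that RFX factors bind or drive in ciliated cells, mainly intraflagellar transport, BBSome and transition zone genes, were far more abundant than the motile genes. Of 30 listed, 29 reached a mean of 1 CPM, and 7 were higher and 22 lower, with a median log2 ratio of -0.14 against -0.03 for all genes. In all, 4 were called lower, or 13.8%, against 8.89% of all genes, and 0 were called higher. The 4 were Ttc8, of the BBSome, at -0.40 (-0.55 to -0.24), Tmem107, of the transition zone, at -0.33 (-0.39 to -0.26), and the transport genes Ift80 at -0.29 (-0.41 to -0.17) and Wdr35 at -0.28 (-0.33 to -0.23).

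The RFX arm GTTGCC was in the promoters of 14 of the 26 genes of this list that had a promoter sequence, or 53.8%, and of 11 of 21 motile cilium genes, or 52.4%, against 14.1% of all genes. The RFX7 target list had it in 2 of 12, or 16.7%, and the RFX5 partners in 0 of 5, while the regulators of multiciliated cells had it in 4 of 10, the MHC list in 2 of 5 and the other Rfx genes in 1 of 3. Among RFX-driven genes at 1 CPM or more, the 13 with the arm had a median log2 ratio of -0.05 and the 12 without it one of -0.14. The order was the same for motile cilium genes (0.12 for 3 with, -0.01 for 3 without) and the MHC list (0.00 for 1, -0.10 for 2). It was reversed for RFX7 targets (-0.29 for 2 with, -0.17 for 10 without) and regulators (-0.50 for 2, -0.04 for 3). These differences were not tested. Of the genes with the paired X-box printed above, Mks1 had 0.02 (-0.11 to 0.15) and Tctn1 -0.23 (-0.47 to 0.01).

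Of 13 genes reported as RFX7 targets, all reached a mean of 1 CPM. In the mutant-labelled library 11 were lower and 2 higher, with a median log2 ratio of -0.21. The 4 called lower, or 30.8% of the list against 8.89% of all genes, were Tob1, an antiproliferative gene, at -0.38 (-0.47 to -0.29), Ddit4, an inhibitor of mTORC1 signalling, at -0.35 (-0.39 to -0.32), Pik3r3, a regulatory subunit of PI3 kinase, at -0.29 (-0.45 to -0.13), and Sesn3, a stress-induced sestrin, at -0.28 (-0.35 to -0.21). Rfx5 is itself on this list. Several of these genes also answer to p53, FOXO and nutrient stress, and the stress markers of the samples moved too: all 5 of a list (Ddit3, Trib3, Chac1, Atf3, Pmaip1) were higher in the mutant-labelled library, with a median of 0.60. Their part in the ratios of the RFX7 list was not tested.

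The partners of RFX5 were well above the minimum, whereas their coactivator was near the detection limit. Of 7 listed genes, 6 reached a mean of 1 CPM, 2 higher and 4 lower, with a median of -0.03 and 0 called. Creb1 had -0.10 (-0.16 to -0.04), Nfyc 0.09 (0.04 to 0.14) and Nfya -0.05 (-0.17 to 0.07). Ciita, the coactivator that switches on MHC class II genes in immune cells, had 3 and 2 UMIs, at or under the limit of 3. Of the 7 genes on the MHC list 4 reached 1 CPM, 3 higher and 1 lower, with a median of 0.03. One of the 4, H2-Ab1, was called higher, or 25% against 5.70% of all genes, at 0.29 (-0.01 to 0.59) on 167 and 205 UMIs, H2-Eb1 had 0.05 (-0.29 to 0.39), and B2m, which pairs with MHC class I, had -0.24 (-0.31 to -0.17).

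**Figure D4:**
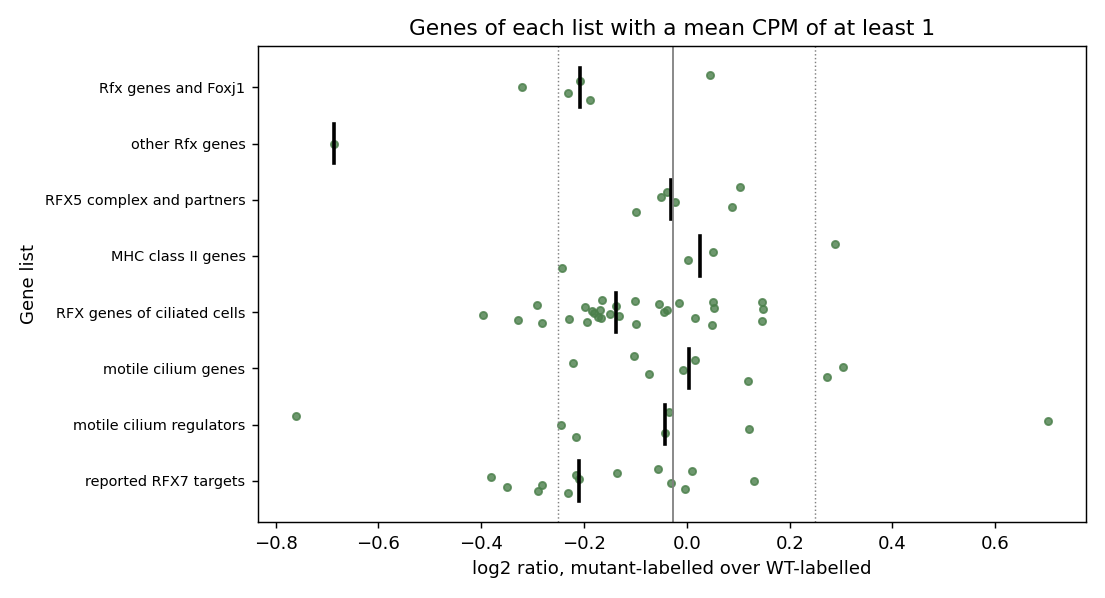
Log2 ratio of the mutant-labelled library over the WT-labelled library (horizontal axis) for genes with a mean of at least 1 CPM in each list (vertical axis); points are genes, black bars list medians, the grey line the median of all genes (-0.03) and dotted lines the size for a call of 0.25. The RFX-driven genes of ciliated cells (median -0.14) and the reported RFX7 targets (-0.21) lie mostly left of the grey line, and the motile cilium genes (0.00) lie on both sides of it.

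By the GENCODE M21 annotation of GRCm38, the 6 protein-coding genes lie at chr8:84066834-84096992 (Rfx1, plus strand), chr17:56775897-56831013 (Rfx2, minus), chr19:27761721-28011166 (Rfx3, minus), chr3:94954075-94961561 (Rfx5, plus), chr9:72532240-72622937 (Rfx7, plus) and chr11:116330704-116335399 (Foxj1, minus). Antisense genes counted apart overlap 4 of them. C330011M18Rik, opposite Rfx1, had 141 and 112 UMIs, B230398E01Rik, opposite Rfx5, had 35 and 41, and Gm27241, opposite Rfx7, had 62 and 58. Gm20407, opposite Rfx3, had 6 and 0. Each count was below that of the Rfx gene it overlaps, and no overlapping antisense gene was annotated for Rfx2 or Foxj1.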

How the data were processed

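Single-cell 3′ RNA (10x Genomics v3.1) was measured in 1 library per genotype. The values are raw UMI counts of each gene in each barcode, as deposited by the authors, with no normalization. The submitters' processing notes name STARsolo, STAR 2.7.9a, Seurat 5.1.0 and build mm10, and the labels' protocols name Cell Ranger 8.0.1; which of these wrote the tables is not stated. The labels give 9238 and 11190 cells with medians of 5333 and 5398 genes, whereas the same numbers of top barcodes in the deposited counts had 3234 and 2848, so these are not the counts behind those statistics.

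Cells were called by the limits given above (8707 and 10587 of 8772 and 10613 barcodes with enough UMIs), and doublets were removed only as an alternative. UMIs of the kept cells were added up within a library and divided by their total (CPM). Intervals are exact (Poisson for sums, conditional for ratios, Clopper-Pearson for shares). The interval method was checked on simulated counts. Clusters came from scanpy 1.11.5 (2000 variable genes, 30 components, 15 neighbours, Leiden resolution 0.5, or 1 for finer clusters) on both libraries together. TMM factors came from edgeR 4.0.16 in R 4.3.3, as an alternative scaling only. All 6 genes were named, and from each of the 7 lists the 3 genes with the largest absolute ratio at a mean of at least 10 CPM (1 CPM where fewer than 3 passed) and any gene called. Dnah5, Dnah9, Gmnc, Mcidas, Noto and Ciita fall outside that rule and were chosen after their values were seen, as were Mks1 and Tctn1 for their letters. The genes and lists were chosen with earlier results of these data known.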

Additional observations from a re-analysis of the deposited data

How the results depend on the processing

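No paired analysis was possible because each genotype has 1 library. Of 72 alternative values for the 6 genes (other limits on UMIs, mitochondrial share or depth, doublets removed, TMM, thinning, equal cluster shares, cells or clusters left out, pseudocount), none changed direction and 71 stayed within the counting interval. The values at equal depth and without cluster 6 were added after the data were seen. The exception was Rfx1, at 0.19 in the largest cluster alone. Rfx3 ranged from -0.35 to -0.22 and lost its call in the largest cluster alone. Rfx7 ranged from -0.21 to -0.15, Rfx5 from -0.24 to -0.14 and Rfx2 from -0.30 (thinned) to -0.04 (without cells low on chromosome 6 or 11). Rfx2 would pass the size for a call when thinned and, at -0.26, by the mean of each cell's CPM. Foxj1 ranged from -0.61 to -0.10, also on either side of that size. For the list medians, the range was an interval taken from the ranked ratios of the genes, or the counting interval where 1 gene was measured. In the RFX5 partner, MHC, motile cilium and regulator lists it ran from the lowest to the highest gene. A median could hardly leave it there, so staying in range says little for these lists. Of 89 list medians, 88 stayed in range, the exception being the other Rfx genes at -0.26 with no minimum level (-0.69 from Rfx4 alone). The RFX7 targets ranged from -0.22 to -0.10 (equal cluster shares), the RFX-driven genes from -0.15 to -0.10, the regulators from -0.22 to 0.04, the motile cilium genes from -0.09 to 0.03 and the MHC list from -0.24 (1 gene at 10 CPM) to 0.10, so the last 3 have no fixed direction. No motile cilium gene and none of the other Rfx genes reached a mean of 10 CPM, so that alternative gave no value for them. Under TMM the all-gene median was 0.00 in place of -0.03. Of 20 cell-state folds, 19 stayed within the counting interval, and Rfx1 in cluster 3 of the WT-labelled library was 1.10 with finer clustering. Without thinning, the shares of cells with a UMI in the WT-labelled and mutant-labelled libraries were 12.5% and 10.9% for Rfx1, 1.57% and 1.13% for Rfx2, 10.1% and 7.0% for Rfx3, 7.53% and 5.44% for Rfx5, 43.8% and 33.9% for Rfx7, and 1.14% and 0.756% for Foxj1. The effect of unequal culture cannot be told apart from genotype, and Rfx2 and Foxj1 are limited by fewer than 140 UMIs per library.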

Other observations

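The 22 genes other than Rfx1, Rfx2 and Rfx3 with back-to-back arms in their promoters included none of the genes of the cilium lists. Those lists do not hold every cilium gene, so a ciliary role of the 22 is not excluded. In all, 13 of the 25 had a mean of at least 1 CPM in these cells. Those other than the Rfx genes had log2 ratios of -0.57 (Nat14), -0.30 (Lrrc56), -0.18 (St7), -0.12 (Igbp1), -0.11 (Sinhcaf), -0.11 (Ezr), -0.04 (Asrgl1), 0.01 (Pin4), 0.08 (3010003L21Rik) and 0.30 (Kcnq1ot1). The pattern was chosen after the Rfx promoters were seen, and no test was made of it.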
